A study of Mus musculus with 9 samples.

Results

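The cytosolic ribosomal protein genes encode the proteins that, with ribosomal RNA, build the large and small subunits of the ribosome. Members were taken by symbol: every gene of the deposited table named Rpl or Rps plus a number, with or without a final a, x or y, and Rplp0, Rplp1, Rplp2 and Rpsa. This gave 71 of the 13223 genes in the table, 43 of the large and 28 of the small subunit. The mm10 annotation of GENCODE holds 76 protein-coding genes that fit the rule, and the other 5 (Rpl21, Rpl26, Rpl30, Rps15a and Rps20) were not analysed here.

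The libraries came from thymic tuft cells, chemosensory epithelial cells of the thymic medulla, sorted from young wild-type female mice. The irradiated group (4 libraries) received a sublethal dose of 425 rad 3 days before the thymus was taken, and the untreated group (5 libraries) was matched in age. Thymus was digested with Liberase TH and DNase, and polyadenylated RNA was read by bulk MARS-seq, which counts the 3′ ends of transcripts from a pool of cells. No source used here gives the sort gate or the number of cells, and the labels do not tie each library to its own mouse. P-values below thus rest on differences among the libraries of a group, some of which may be technical.

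Irradiated replicates 1 to 4 held 667920, 939948, 891470 and 509157 counts, and untreated libraries held 686082 to 978442. The tuft cell genes Trpm5, Avil and Pou2f3 were counted in each of the 9 libraries. The 25 tuft markers summed to 19055 to 25597 counts per 1000000 counts (CPM) in irradiated and 11304 to 24650 CPM in untreated libraries. The 16 thymocyte markers in the table, of 20 listed, summed to 65.5 to 79.5 CPM in irradiated and 146 to 1340 CPM in untreated libraries, and the 16 fibroblast and mesothelial markers to 3619 to 6160 CPM in irradiated and 1213 to 2554 CPM in untreated libraries. The part of these markers in the results was not tested, and a pool of cells cannot tell fewer cells of a type from less RNA per cell. Untreated replicate 1 and irradiated replicate 4 stood apart for the ribosomal protein genes, each in its own way described below. Fold changes of many named members are also given with 1 of them left out. Medians of the subunits and of the gene lists, and fold changes of genes outside the members, are given with all libraries only.

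Ribosomal proteins are needed in nearly equal numbers, and their messages are among the most abundant of any dividing or secreting cell. In vertebrates these messages begin with a run of pyrimidines, the terminal oligopyrimidine tract, through which the kinase mTOR and the RNA-binding protein Larp1 set how strongly they are translated and stored. After DNA damage or failed ribosome assembly, free Rpl5 and Rpl11 can bind Mdm2, the ubiquitin ligase that holds p53 low.

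The RefSeq start-site windows of build GRCm38.p6 were searched for this tract, and the windows printed were chosen among those that hold it. A tract was counted as a C followed by at least 5 further C or T on the sense strand, beginning from 10 bases before the annotated start to 10 bases after it. It was found in 31 of 64 windows of members (48.4%), which belong to 30 of the 54 members with a window, and in 19.2% of all 32851 windows of the same length. Beginning exactly at the annotated first base, it was found in 15.6% of member windows and 1.70% of all windows. Each line gives 30 bases before the annotated start and the first 20 transcribed bases, 5′ to 3′, with the tract in capitals. Rplp2 of the stalk and Rps6, the target of the S6 kinases, are shown first.
Rplp2, chr7:141447621-141447670, plus strand: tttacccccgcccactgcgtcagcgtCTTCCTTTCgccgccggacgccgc
Rps6, chr4:86857348-86857397, minus strand: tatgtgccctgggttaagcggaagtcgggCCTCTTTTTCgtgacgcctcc
The next set are members that were low in irradiated replicate 4.
Rpl39, chrX:37085203-37085252, minus strand: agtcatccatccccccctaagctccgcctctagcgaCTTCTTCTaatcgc
Rpl31, chr1:39367821-39367870, plus strand: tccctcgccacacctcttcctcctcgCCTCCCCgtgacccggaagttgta
Rpl35a, chr16:33056452-33056501, plus strand: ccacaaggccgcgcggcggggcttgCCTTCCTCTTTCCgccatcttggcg
The last set are members that were high in that library.
Rpl7a, chr2:26910777-26910826, plus strand: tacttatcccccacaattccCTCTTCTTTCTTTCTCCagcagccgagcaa
Rpl13a, chr7:45128726-45128775, minus strand: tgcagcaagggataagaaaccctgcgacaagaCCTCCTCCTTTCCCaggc
Rps2, chr17:24720033-24720082, plus strand: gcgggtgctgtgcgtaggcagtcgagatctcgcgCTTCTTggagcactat

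Of 12 members that were low in irradiated replicate 4, 8 had a window and 4 of these carried the tract. Of 15 that were high, 14 had a window and 8 of these carried it. The part of the tract in their levels was not tested. In the 300 bases from 250 before to 50 after the start, CCGGAAG, a match to the binding motif of ETS factors, was found on either strand in 35.9% of member windows and 8.86% of all windows. CCATNTT, a match to the motif of the factor Yy1, was found on either strand in 34.4% of member windows and 16.1% of all windows. TATAAA was found on the sense strand in the 50 bases before the start in 0 of the 64 member windows and in 2.63% of all windows. These matches describe the letters of the windows, whose annotated starts can lie some bases from the start used in these cells.

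The members as a whole made up a like share of the counts in both groups. They took 9.0%, 7.78%, 8.91% and 7.98% of the counts in irradiated replicates 1 to 4, and 12.8%, 9.27%, 7.98%, 8.05% and 7.83% in untreated replicates 1 to 5. The irradiated values all lie within the range of the untreated values except the lowest, and the one library far from the rest is untreated replicate 1. The mean share was 8.42% ± 0.628 (SD, n = 4) in irradiated and 9.19% ± 2.11 (SD, n = 5) in untreated libraries. The difference of -0.770 percentage points was smaller than the SD of the untreated group, and it became 0.136 points without untreated replicate 1, when the untreated mean was 8.28% ± 0.667 (SD, n = 4). The Wilson 95% intervals, which cover counting error only, ran from 8.93% to 9.07% in irradiated replicate 1 and from 12.7% to 12.9% in untreated replicate 1, so counting error was small beside the spread between libraries.

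The balance between the subunits was also alike, apart from 1 library. Counts of large over small subunit members stood at 1.30, 1.31, 1.35 and 1.55 in irradiated replicates 1 to 4, and at 1.29, 1.31, 1.34, 1.32 and 1.29 in untreated replicates 1 to 5. Irradiated replicate 4 alone lay above 1.35.

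**Figure D1:**
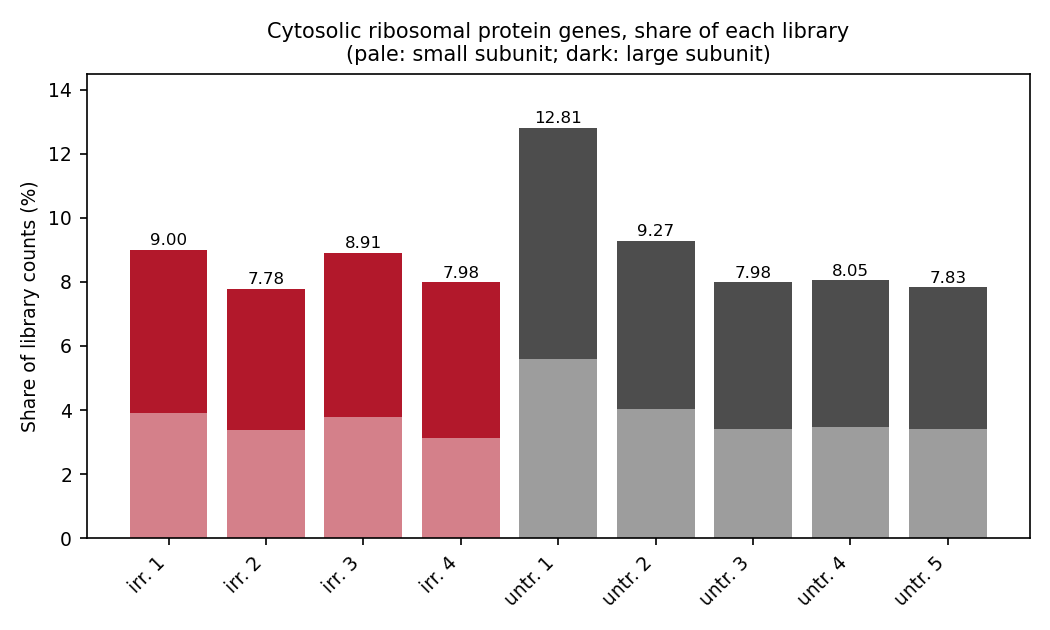
Share of library counts (%) taken by small subunit (pale) and large subunit (dark) ribosomal protein genes in the 4 irradiated (red) and 5 untreated (grey) libraries, with the sum above each bar. The irradiated libraries lie between 7.78% and 9.0%, and untreated replicate 1 stands alone at 12.8%.

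A 3′-end method gives each transcript a count that does not grow with its length, so levels here are CPM scaled by the trimmed mean of M-values (TMM) and not divided by length. The median member had 1123 CPM over all libraries, against 44.8 CPM for all tested genes, and 34 members were among the 100 most abundant genes. The levels were far from equal: the 10 most abundant members took 33% of the members' counts and the 6 least abundant took 0.128%. The annotation lists 294 pseudogenes named after a ribosomal protein gene. In 42 of the 71 members over 50% of the 50-base words in the last 300 bases of the transcript also occur in a transcript of another gene, and only 15 members share none. No source used here says how reads that fit several genes were counted, so the levels of these members are uncertain and may be understated.

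Of the 71 members, 68 passed the filter on low counts and were tested with edgeR's quasi-likelihood test over all 8934 tested genes. At a Benjamini-Hochberg adjusted p under 0.05, 0 members were higher and 0 were lower in irradiated libraries, while 1.22% of all tested genes were called higher and 0.123% lower. At an unadjusted p under 0.05 the count was also 0, against 10.6% of all genes, and the lowest edgeR adjusted p of a member was 0.586, for Rpl4. DESeq2's Wald test called 0 members (2.75% of all genes) and limma-voom called 0 members (1.91% of all genes). The groups did not overlap for 0 tested members and for 5.14% of all genes.

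The fold changes were small. The median log2 fold change of irradiated over untreated was -0.08 for the tested members and -0.02 for all tested genes, with 22 members above 0 and 46 below, and 47.5% of all tested genes above 0. It ran from -0.52 for Rpl32 to 0.46 for Rpl7a, and 65 of 68 members were within 0.5 of 0, while 19.5% of all tested genes lay beyond 0.5. The standard errors had a median of 0.25, so a small change in a single gene could not be seen. The 95% intervals bound what could be missed: they lay wholly within 1 log2 unit of 0 for 60 of 68 members, reached 1 upward for 2 and reached -1 for 7, against 62.8%, 16.6% and 22% of all tested genes. Large subunit members had a median log2 fold change of -0.04 (16 of 42 above 0) and small subunit members of -0.10 (6 of 26 above 0). These subunit values are from all libraries. They are not given without untreated replicate 1, which set the sign of the median over all members.

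The sign of the median rested on 1 library. Without untreated replicate 1 it was 0.09 and 44 of 68 members were above 0. Leaving it out turned the sign of 22 members, each to above 0. Leaving out irradiated replicate 4 turned the sign of 18 members, 12 of them to below 0, with 16 of 68 above 0 and a median of -0.10. Without both untreated replicate 1 and irradiated replicate 4, an alternative chosen after the data were seen, it was 0.07 with 50 of 68 above 0, and edgeR called 0 members in either fit.

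**Figure D2:**
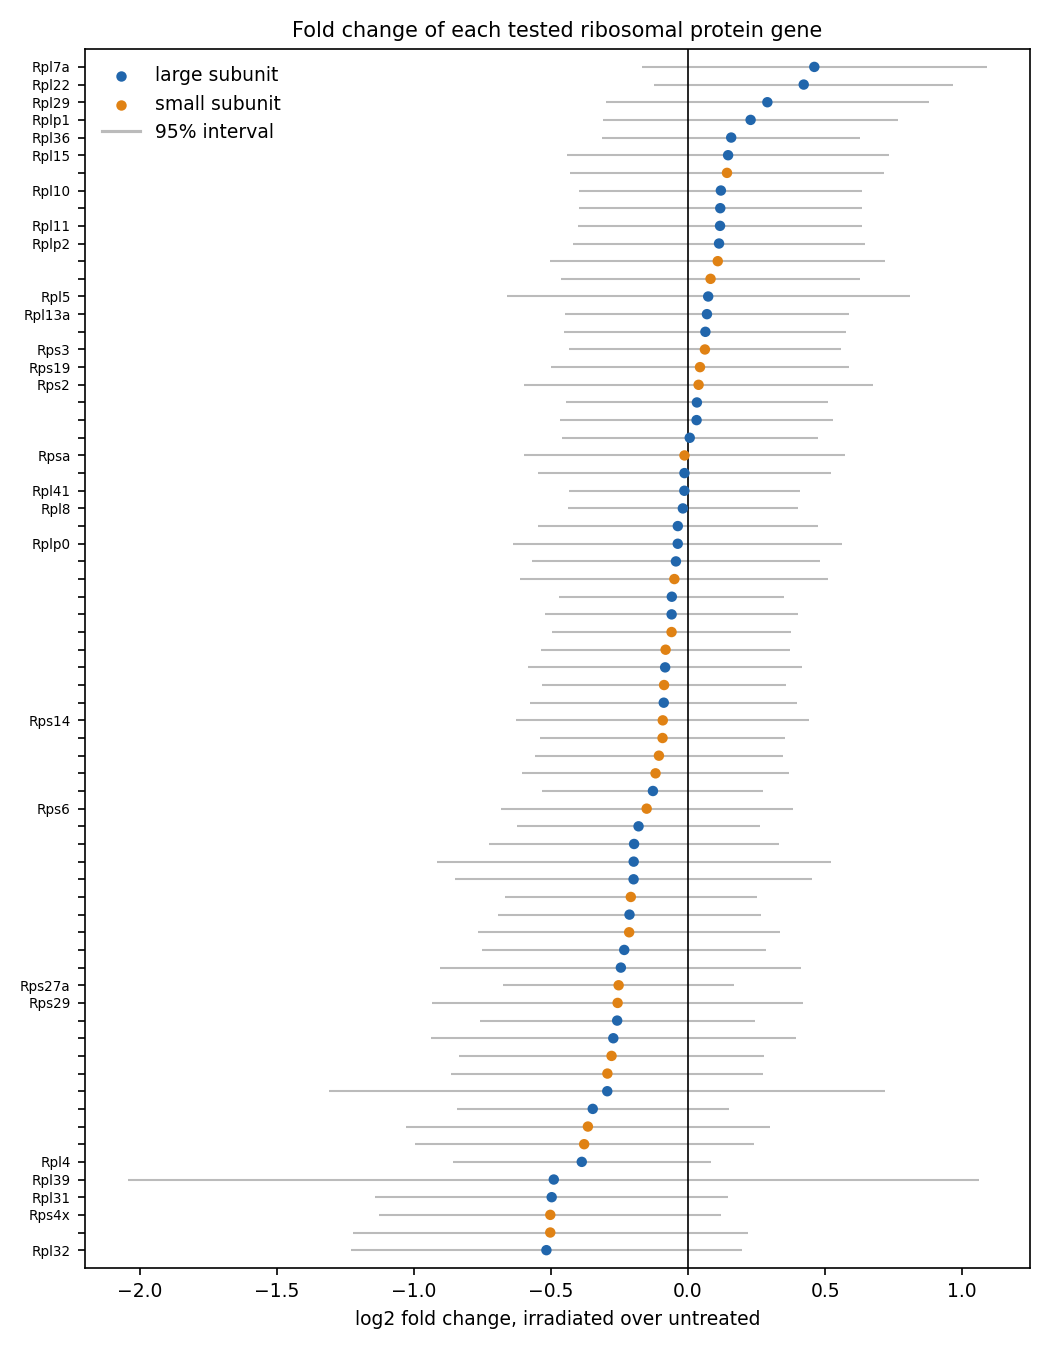
Log2 fold change of irradiated over untreated (x axis) for each of the 68 tested members (y axis), ordered by value and labelled for some of the members named in the text, with 95% intervals from the edgeR fit; blue points are large subunit and orange points small subunit members. Each interval crosses 0, and the widest belongs to Rpl39.

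The stalk proteins reach out of the large subunit and recruit translation factors, and one of them, Rplp1, was the most abundant member. Rplp1 (chr9:61913284-61914542, minus strand) had 4876, 3359, 4599 and 5858 CPM in irradiated replicates 1 to 4, and 6141, 3994, 3167, 3293 and 3347 CPM in untreated replicates 1 to 5. The highest value was that of untreated replicate 1 and the groups overlapped. Its mean was 4673 ± 1030 CPM in irradiated (SD, n = 4) and 3988 ± 1245 CPM in untreated libraries (SD, n = 5), with a log2 fold change of 0.23 ± 0.25 (SE) and an edgeR adjusted p of 0.827. That value was 0.10 without irradiated replicate 4 and 0.44 without untreated replicate 1. Rplp0, the protein that anchors the stalk, had a log2 fold change of -0.04, which was -0.28 without irradiated replicate 4 and 0.17 without untreated replicate 1. Rplp2, the partner of Rplp1, had 0.11, which was -0.03 and 0.30 in the same 2 fits. Of the 4 genes of the stalk and its base, which include Rpl12, 2 were above 0 with a median of 0.05.

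Rpl5 and Rpl11, the members that can bind Mdm2, differed widely in counted level and neither passed the test. Rpl11 had 1017, 881, 1050 and 1806 CPM in irradiated and 1491, 1107, 890, 1028 and 958 CPM in untreated replicates 1 to 5. The irradiated range was set by its replicate 4, and the log2 fold change was 0.12 ± 0.24 (SE, edgeR adjusted p = 0.915). It turned to -0.16 without irradiated replicate 4 and was 0.26 without untreated replicate 1. Rpl5 had only 25.0, 30.1, 15.7 and 8.42 CPM in irradiated and 18.8, 17.8, 17.3, 25.0 and 18.1 CPM in untreated libraries. Its log2 fold change was 0.07 ± 0.34 (SE), which was 0.28 without irradiated replicate 4 and 0.07 without untreated replicate 1. In the annotation exons of Rpl5 overlap exons of Snord21 and Fam69a. The part of such overlap, or of the annotated 3′ end, in its low level was not tested. Mdm2 itself had 212, 160, 166 and 84.2 CPM in irradiated and 89.0, 114, 71.5, 86.8 and 116 CPM in untreated libraries. Its first 3 irradiated values lay above each untreated one and the fourth did not, and the log2 fold change of 0.71 ± 0.24 had an edgeR adjusted p of 0.234.

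Of the other large subunit members, Rpl41, which encodes the shortest of these proteins, had the second highest level and one of the most even ones. It had 4382, 3322, 3899 and 3596 CPM in irradiated and 4693, 3867, 3579, 3699 and 3339 CPM in untreated libraries. Its log2 fold change was -0.01 with a 95% interval from -0.43 to 0.41. Rpl8, also among the 6 most abundant members, had a log2 fold change of -0.02, and Rpl3, a core protein near the peptidyl transferase centre, had -0.06. They were -0.08 and -0.14 without irradiated replicate 4, and 0.09 and 0.07 without untreated replicate 1. Rpl10, one of the last proteins to join the large subunit, had 0.12 and Rpl13a, which in human monocytes can leave the ribosome and silence inflammatory messages, had 0.07. Without irradiated replicate 4 both turned below 0, to -0.06 for Rpl10 and -0.15 for Rpl13a. Without untreated replicate 1 they were 0.23 and 0.22.

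Rpl22 is needed for the development of T cells in mice and has a close relative, Rpl22l1, that it represses. Rpl22 had 42.1, 54.9, 52.6 and 96.8 CPM in irradiated and 39.8, 41.5, 50.6, 55.2 and 39.0 CPM in untreated libraries. Only irradiated replicate 4 lay above all untreated libraries, and the log2 fold change of 0.42 ± 0.25 (SE, edgeR adjusted p = 0.628) was 0.15 without it. The fold change was 0.38 without untreated replicate 1. Rpl22l1 had 223, 190, 240 and 21.0 CPM in irradiated and 257, 210, 128, 125 and 113 CPM in untreated libraries. Its log2 fold change was 0.03 ± 0.53 (SE). The low value of irradiated replicate 4 rests on 10 counts, and the fold change is not given without that library.

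The 2 largest differences in either direction were those of Rpl7a and Rpl32. Rpl7a had 843, 813, 756 and 1498 CPM in irradiated and 1106, 443, 740, 456 and 799 CPM in untreated libraries. The groups overlapped, and the log2 fold change of 0.46 ± 0.29 (SE, edgeR adjusted p = 0.647) was 0.18 without irradiated replicate 4. It was 0.68 without untreated replicate 1. Rpl32 had 1222, 957, 1140 and 379 CPM in irradiated and 2202, 1290, 1057, 1042 and 1029 CPM in untreated libraries. Its log2 fold change of -0.52 ± 0.33 (SE, edgeR adjusted p = 0.650) was -0.26 without irradiated replicate 4 and also to -0.26 without untreated replicate 1. The other large subunit genes at the ends of the range were Rpl29 (0.29), Rpl36 (0.16), Rpl15 (0.15), Rpl31 (-0.50), Rpl39 (-0.49) and Rpl4 (-0.39). Without irradiated replicate 4 Rpl29 turned to -0.13, and the others were 0.05 for Rpl36, 0.27 for Rpl15, -0.24 for Rpl31, -0.10 for Rpl39 and -0.27 for Rpl4. Without untreated replicate 1 Rpl29 had 0.39, Rpl36 0.31, Rpl15 0.10, Rpl31 -0.32, Rpl39 -0.26 and Rpl4 -0.24.

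Among 10 tested large subunit members that line or ring the tunnel through which the new protein leaves, 2 had a log2 fold change above 0 and the median was -0.20. Rpl4 reaches into the tunnel wall. It had 1657, 1630, 1474 and 1082 CPM in irradiated and 2657, 1962, 1609, 1739 and 1591 CPM in untreated libraries. The groups overlapped narrowly, with the 2 highest irradiated values just above the lowest untreated ones.

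In the small subunit, Rps29 and Rps14 were the most abundant. Rps29, a small zinc-binding protein, had 4172, 3023, 4066 and 1185 CPM in irradiated and 5179, 3344, 3365, 3378 and 3330 CPM in untreated libraries. Untreated replicates 2 to 5 lay between 3330 and 3378 CPM, and the low irradiated value and the high untreated value belong to the libraries that stood apart. The log2 fold change was -0.26 ± 0.32 (SE), 0.01 without irradiated replicate 4 and -0.11 without untreated replicate 1. Rps14, which helps shape the path of the message through the small subunit, had a log2 fold change of -0.09, which was 0.02 without irradiated replicate 4 and 0.12 without untreated replicate 1.

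Rps6, whose phosphorylation by the S6 kinases is the usual readout of mTOR activity, was one of the lower members. It had 306, 198, 290 and 198 CPM in irradiated and 419, 329, 226, 209 and 194 CPM in untreated libraries. The groups overlapped, with a log2 fold change of -0.15 ± 0.25 (SE), which was -0.06 without irradiated replicate 4 and 0.05 without untreated replicate 1. Rps3, at the entry of the channel for the message, had 0.06, Rpsa, also known as a laminin receptor, had -0.01, and Rps27a, made as a fusion with ubiquitin, had -0.25. Without irradiated replicate 4 these 3 were -0.07, -0.19 and -0.26, and without untreated replicate 1 they were 0.29, 0.25 and -0.12. The 9 members that line the path of the message had a median of -0.06 with 2 above 0.

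Rps19 is the gene most often mutated in Diamond-Blackfan anaemia, a human failure of red cell production. It had 3102, 2229, 2739 and 2018 CPM in irradiated and 3766, 2803, 1932, 1896 and 1837 CPM in untreated libraries. Its log2 fold change was 0.04 ± 0.25 (SE), 0.14 without irradiated replicate 4 and 0.25 without untreated replicate 1. Of 15 tested members mutated in that disease 7 were above 0 and the median was -0.05. At the low end of the small subunit was the X-linked Rps4x, with a log2 fold change of -0.50 and an edgeR adjusted p of 0.602. Its fold change was -0.26 without irradiated replicate 4 and -0.35 without untreated replicate 1.

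**Figure D3:**
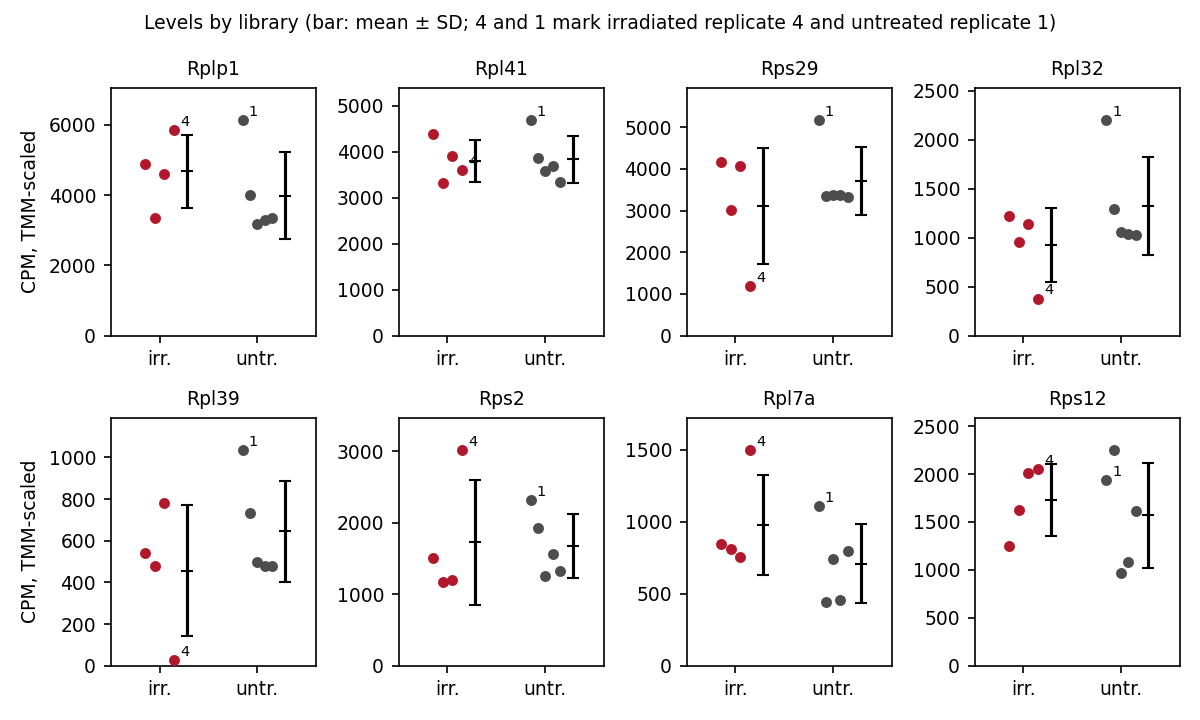
CPM scaled by TMM (y axis) of 8 members in each irradiated (red) and untreated (grey) library, with the group mean ± SD as a bar beside the points; the digits mark irradiated replicate 4 and untreated replicate 1. The groups overlap in each panel, and the marked libraries are the extremes for Rpl32, Rps29 and Rpl39.

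Rps24, Rps27 and Rpl34 were too rare to be tested. Rps27, a zinc-binding protein of the small subunit, had 6, 6, 9 and 3 counts in irradiated and 1, 0, 1, 1 and 3 counts in untreated libraries. In CPM the groups did not overlap, at 6.22 to 10.1 CPM in irradiated and 0 to 4.18 CPM in untreated libraries. In the authors' deposited table, whose fold change is untreated over irradiated, Rps27 had a log2 fold change of -2.40 and an adjusted p of 0.159, the lowest of any member. With no filter on low counts edgeR gave it an adjusted p of 0.25. All of the 50-base words at the 3′ end of Rps27 occur in transcripts of 9 other genes, so 30 counts in all say little of the gene itself. Rps24 had 25 counts in irradiated and 34 in untreated libraries, 22 of these in untreated replicate 1, and Rpl34 had 11 in irradiated and 16 in untreated libraries. By the flag of the authors' deposited table, 0 of the 71 members passed, against 1.83% of all genes.

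Ribosomal protein genes and relatives that the naming rule leaves out behaved alike. Of the 10 in the table, 9 were tested, 0 were called higher or lower, and the median log2 fold change was -0.14 with 4 above 0. Rps3a1 had -0.22, Fau 0.15, Rack1, a signalling scaffold on the small subunit, -0.14, Rpl36al -0.20 and Rps4l 0.18. Rps4l, among the 4 above 0, had no protein-coding transcript in the annotation used, so it may not encode a ribosomal protein. Rps27l, a relative of Rps27 that is a p53 target in human cells, had 357, 334, 336 and 326 CPM in irradiated and 315, 357, 248, 247 and 262 CPM in untreated libraries. Its irradiated values were close together and lay within or just above the untreated range, with a log2 fold change of 0.24 ± 0.17 (SE, edgeR adjusted p = 0.681). Rpl7l1 had the lowest value of the group, -0.56 ± 0.28 (SE, edgeR adjusted p = 0.505).

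The wider machinery gave few differences and none that passed. An unadjusted p under 0.05, given here beside each list, was found for 10.6% of all tested genes. Of 64 tested mitochondrial ribosomal protein genes 0 were called in either direction and 23 were above 0, with a median of -0.10, and 2 had such a p. Of 83 tested genes of ribosome assembly 0 were called and 30 were above 0, with a median of -0.10, and 5 had such a p. Utp11, a factor for the small subunit, had 43.7, 36.3, 44.8 and 23.1 CPM in irradiated and 71.2, 84.4, 77.7, 59.2 and 51.6 CPM in untreated libraries. All its irradiated values lay below all untreated ones, yet the log2 fold change of -0.87 ± 0.24 (SE) had an edgeR adjusted p of 0.123. Wdr3 and Ftsj3, both also assembly factors, had -0.93 and -0.70 with edgeR adjusted p of 0.246 and 0.340.

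Of 11 tested genes of RNA polymerase I and its factors 0 were called, with 4 above 0, a median of -0.35 and 1 with such a p. Its largest subunit, Polr1a, had 7.80, 7.26, 13.4 and 18.9 CPM in irradiated and 22, 20.7, 22.2, 18.4 and 18.1 CPM in untreated libraries. The highest irradiated value overlapped the untreated range, and the log2 fold change was -0.83 (edgeR adjusted p = 0.389). These values rest on only 33 counts in irradiated and 80 in untreated libraries. Of 29 initiation factors 0 were called, with 12 above 0, a median of -0.07 and 2 with such a p, and the cap-binding protein Eif4e2 had -0.62 with an edgeR adjusted p of 0.216. Of 9 elongation and termination genes 0 were called, with 2 above 0, a median of -0.09 and 1 with such a p. Of 18 other genes whose messages are known to carry the tract, some of them counted above, 0 were called, with 5 above 0, a median of -0.11 and 1 with such a p.

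Of 25 tested regulators of ribosome production and translation 0 were called, with 15 above 0, a median of 0.04 and 4 with an unadjusted p under 0.05. Ppp1r15a, which brings the phosphatase that restores initiation after stress, had 732, 440, 517 and 867 CPM in irradiated and 431, 262, 261, 389 and 333 CPM in untreated libraries. All irradiated values lay above all untreated ones, with a log2 fold change of 0.93 ± 0.23 (SE) and an edgeR adjusted p of 0.0862. Myc, an activator of ribosome genes, had 60.9, 43.5, 30.2 and 90.5 CPM in irradiated and 24.1, 35.6, 32.1, 30.2 and 18.1 CPM in untreated libraries, with a log2 fold change of 0.97 ± 0.32 (SE, edgeR adjusted p = 0.216). Of 17 genes of ribosome surveillance 0 were called, with 8 above 0, a median of -0.00 and 2 with such a p.

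The largest departures among the members were those of 2 single libraries. In untreated replicate 1 the members were high together. Of the 65 members with a mean of at least 100 CPM, all 65 were above the mean of the other untreated libraries, by a median of 0.72 on the log2 scale, with log2 taken of CPM plus 2. It was the highest of the 9 libraries for 55 members (84.6%) and for 12.1% of the 2034 genes at that abundance. The members moved as a block there, with an SD of 0.17 between them.

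Markers of some other cells were also high in untreated replicate 1, and those of others were not. Its 16 thymocyte markers summed to 1340 CPM, against 146 to 370 CPM in the other untreated and 65.5 to 79.5 CPM in irradiated libraries. Lck, a kinase of T cells, had 204 counts there, against 14 to 24 in the other untreated and 3 to 5 in irradiated libraries. The 15 macrophage and dendritic cell markers in the table, of 18 listed, summed to 2805 CPM, against 456 to 1511 CPM in the other untreated libraries, and the 25 tuft markers to 15201 CPM, against 11304 to 24650 CPM. Cd3e had 32 counts there and Ptcra 13, and Ptcra was at 0 in all irradiated libraries. The 11 markers of other thymic epithelial cells in the table, of 12 listed, summed to 342 CPM there, the lowest of the 9 libraries, against 567 to 2262 CPM in the other untreated libraries. The 10 endothelial markers summed to 1513 CPM there, within the 1092 to 2510 CPM of the other untreated libraries, and the 16 fibroblast and mesothelial markers to 2554 CPM, above their 1213 to 1928 CPM. The 7 B cell markers in the table, of 9 listed, summed to 327 CPM, above the 141 to 212 CPM of the other untreated libraries. The elongation and termination genes summed to 7337 CPM there and to 5051 to 6008 CPM in the other untreated libraries. The part of these cells in the level of the ribosomal protein genes was not tested.

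In irradiated replicate 4 the members moved apart from each other. The SD of the members' log2 deviation from the untreated mean was 0.99 in that library and 0.14 to 0.18 in the other irradiated ones, and over all genes at 100 CPM it was 0.89 against 0.47 to 0.53. The order of the members' levels in it correlated with the other libraries at a Spearman's rho of 0.73 to 0.77 over 65 genes, while the other 8 libraries correlated with each other at 0.96 to 0.99. Against irradiated replicates 1 to 3, 12 members (18.5%) were lower by over 1 log2 unit, as were 10.9% of all genes at 100 CPM, and 2 members (3.08%) were higher by over 1, as were 6.19% of all genes. It was the lowest of the 9 libraries for 25 members (38.5%) and for 24.2% of all genes, and the highest for 9 members (13.8%) and for 32.2% of all genes. It was also the library with the fewest counts.

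**Figure D4:**
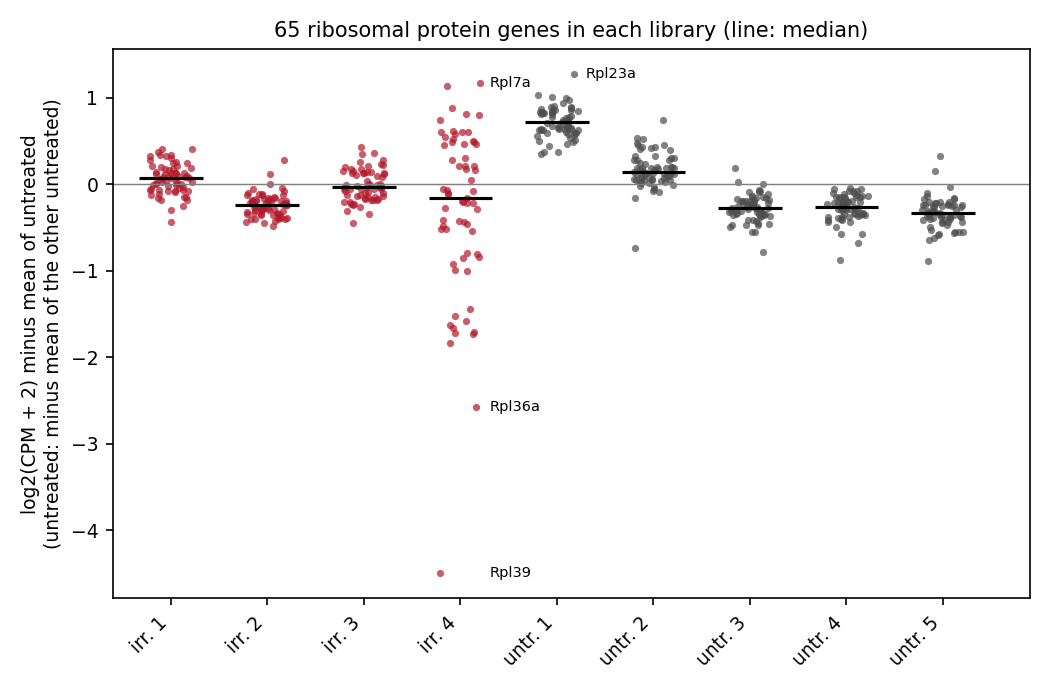
Deviation of each of the 65 members with at least 100 CPM from the mean of the untreated libraries, on the scale of log2(CPM + 2), in the 4 irradiated (red) and 5 untreated (grey) libraries; an untreated library is set against the mean of the other untreated ones, and lines are medians. Untreated replicate 1 is shifted upward as a block with a median of 0.72, and irradiated replicate 4 is spread out with an SD of 0.99.

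The members named for this library were chosen after their values were seen, since they are its extremes. Rpl39, a very short protein of the exit tunnel, had 541, 481, 780 and 25.2 CPM in irradiated replicates 1 to 4, and 1036, 735, 496, 480 and 478 CPM in untreated replicates 1 to 5. The value of irradiated replicate 4, which rests on 12 counts, differed from the mean of the other irradiated libraries by -4.44 log2 units. Rpl36a, near the exit site for transfer RNA, had 456, 332, 412 and 61.0 CPM in irradiated and 611, 385, 337, 312 and 297 CPM in untreated libraries, and irradiated replicate 4 differed from the other irradiated ones by -2.66 log2 units. Others among the 12 were Rps29, Rpl23, Rpl32, Rpl31, Rpl35a, Rps4x, Rps25 and Rps21, with differences of -1.65 to -1.0 log2 units.

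At the other end, Rps2, at the entry of the channel for the message, had 1512, 1167, 1200 and 3018 CPM in irradiated and 2321, 1926, 1254, 1558 and 1324 CPM in untreated libraries. Rpl29, a small protein of the large subunit, had 694, 641, 632 and 1561 CPM in irradiated and 910, 816, 609, 652 and 612 CPM in untreated libraries. For both, irradiated replicate 4 was the highest of the 9 libraries. Outside the members, Tpt1, a growth-linked message that also carries the tract, had 1715, 1143, 1618 and 5412 CPM in irradiated and 1973, 1578, 1400, 1412 and 1167 CPM in untreated libraries.

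Low and high members in irradiated replicate 4 differed in their coding sequence. The 12 members lower by over 1 log2 unit had a median of 125 codons and a coding GC content of 49.8%, and the 15 members higher by over 0.5 had a median of 203 codons and 56.0% GC. Over the 65 members the deviation of that library from the untreated mean correlated with coding GC content at a Spearman's rho of 0.48 and with coding length at 0.40. Over 1995 genes at 100 CPM the same values were 0.47 and 0.04. The other 3 properties compared, the length of the transcript, the length after the stop codon and the GC content of the last 300 bases, gave rho of 0.26, -0.09 and 0.21 over the members. In irradiated replicates 1 and 3 the correlation with coding length had the other sign, -0.46 and -0.59, on much smaller deviations. The points of these correlations are genes of 1 library and share its depth, so they describe that library and not the treatment.

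**Figure D5:**
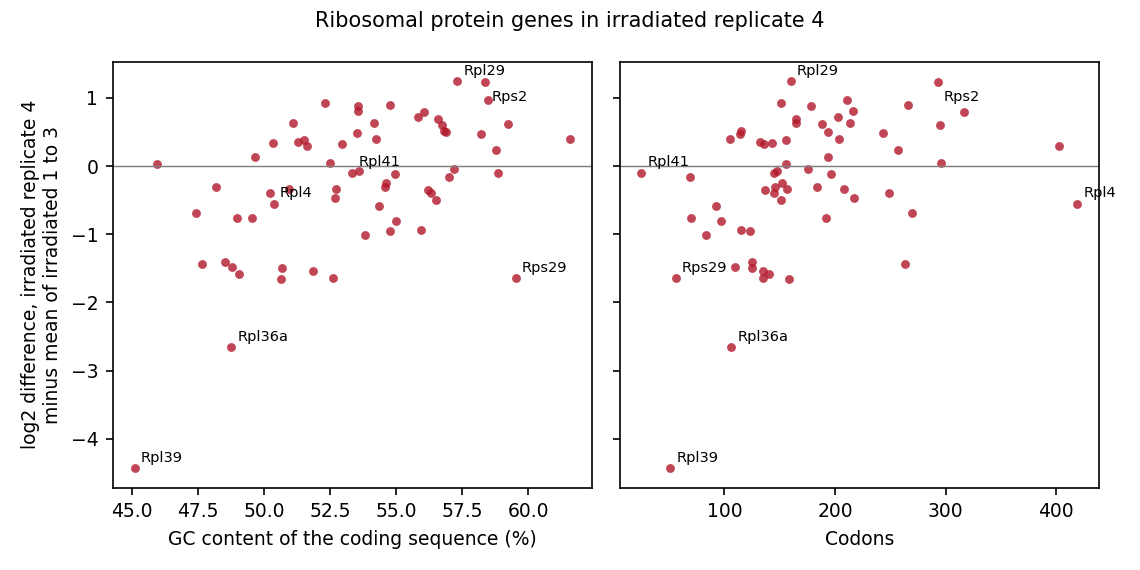
Log2 difference of irradiated replicate 4 from the mean of irradiated replicates 1 to 3 (y axis) for the 65 members with at least 100 CPM, against the GC content of the coding sequence in percent (left) and the number of codons (right), both on the x axis. Rpl39, with the lowest GC content, lies lowest at -4.44, and Rps29 lies low in spite of a high GC content.

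Within each group the spread between libraries followed these 2 libraries. The median coefficient of variation of the 65 members was 23.7% in irradiated and 27.5% in untreated libraries, against 21.0% in irradiated and 18.1% in untreated libraries for all 2034 genes at 100 CPM. It was 12.3% without irradiated replicate 4 and 14.2% without untreated replicate 1, against 12.5% and 16% for all genes. Counting error alone would give members 3.49% in irradiated and 3.11% in untreated libraries.

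With irradiated replicate 4 left out and the shared level of each library taken off, 3 members still went their own way, and they were chosen after their values were seen. Their SD over 8 libraries on the log2 scale was 0.43 for Rpl7a, 0.39 for Rps12 and 0.38 for Rpl23a, where the median member had 0.12 and the next, Rpl35, had 0.22. Rps12, a small subunit protein that in flies serves as a sensor in cell competition, had 1251, 1620, 2014 and 2048 CPM in irradiated and 1936, 2252, 963, 1085 and 1618 CPM in untreated libraries. Rpl23a, the docking site at the tunnel exit for factors that receive the new protein, had 850, 956, 1326 and 1336 CPM in irradiated and 2332, 1496, 1165, 709 and 701 CPM in untreated libraries. The high and low libraries of the 3 genes were not the same. Their 3′ ends share 50-base words with transcripts of 65 other genes for Rpl7a and 23 each for Rps12 and Rpl23a, and the part of such reads in their spread was not tested.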

How the data were processed

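Bulk MARS-seq of sorted thymic tuft cells gave 4 irradiated and 5 untreated libraries. The deposited table holds counts per gene in its raw columns, per the file headers. Per the submitters' processing notes, bcl2fastq, cutadapt, STAR 2.5.2b, HTSeq, DESeq2 and mm10 were used, in roles that no source used here gives. No source used here says whether molecular identifiers were collapsed or strand was read. A count may thus be a read, and reads of the 34 members whose exons overlap another gene's may be mixed. The deposited normalized columns hold a signal, counts divided by a size factor, and the deposited regularized columns hold log2 values, and neither was used. The authors' log2 fold change, untreated over irradiated, and p-values were read only for the members and counts of passing genes. The authors' other columns hold flags, and 0 columns belong to other series.

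The counts were tested with edgeR 4.0.16 in R 4.3.3: filterByExpr with a minimum count of 10, TMM scaling, a robust quasi-likelihood F test without covariates over 8934 genes, and Benjamini-Hochberg adjustment at 0.05. The biological coefficient of variation was 28.9%. Standard errors are the fold change over the square root of F. The scripts were tested on simulated data. DESeq2 1.42.0, limma 3.58.1, other scalings and filters, thinning, a replicate block and leaving out libraries were alternatives. No test was made over the members as a set. Genes named are the ends of the fold change and level ranges, members with a set role, all relatives outside the rule, and for each other list up to 3 genes with the smallest p, unless said to be chosen after their values were seen. Some genes that this rule names are not reported here. Members, lists and tests were chosen with earlier results of these data known. Coordinates are those of the mm10 annotation of GENCODE, and start-site windows are from RefSeq.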

Additional observations from a re-analysis of the deposited data

Results flagged for a closer look

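Within each group, a library was marked when its gap to the nearest other library, as a share of the group's whole range, passed Dixon's 95% limit of 0.829 for 4 libraries or 0.710 for 5. Of 86 groups examined 13 were marked, 3 irradiated and 10 untreated, and chance marks about 1 in 20 groups. Many of these genes share a library, so the marks are not independent.

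In the irradiated group the library standing apart was replicate 4 each time, with a gap of 0.932 of the range for Rpl29, where it was high, 0.883 for Rpl7a, where it was high, and 0.876 for Rps3a1, where it was low at 1063 CPM and irradiated replicates 1 to 3 had 1848 to 1960 CPM.

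In the untreated group untreated replicate 1 stood apart for the share of library counts taken by the members. Its gap of 0.710 barely passed, since it equals the limit at the digits given. It was also the library standing apart, on the high side, for Rps29 (0.974), Rpl32 (0.777), Rps24 (0.755), Rpl3 (0.733), Rps3 (0.724), Rplp1 (0.722) and Rpl31 (0.721). Rpl3l, a relative of Rpl3 known from muscle, had 8 counts in untreated replicate 1 and 0 in the other 8 libraries, which gives a gap of 1.0. For Rpl5 (0.796) the high library was untreated replicate 4 with 25.0 CPM, and the rest of the untreated group had 17.3 to 18.8 CPM.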

How the results depend on the processing

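No member was called higher or lower by edgeR, DESeq2 or limma-voom in any of 20 alternative fits, and the lowest adjusted p of a tested member over them was 0.307 (Rps4x, with the replicate block). All 759 single-gene results over the alternatives, for 38 genes, kept their call. The median log2 fold change of the members ran from -0.14 to 0.09 when 1 library was left out, and only leaving out untreated replicate 1 made it positive, with or without irradiated replicate 4. The difference in share ran from -1.11 to 0.136 percentage points over the same fits. The median coefficient of variation ran from 12.3% to 27.1% in irradiated and from 14.2% to 31.2% in untreated libraries when 1 library was left out.

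Over all genes, 109 were called higher and 11 lower. DESeq2's Wald test called 180 higher and 66 lower, and limma-voom called 171 in all, 24 of them lower. Leaving out 1 library gave 50 to 114 higher and 2 to 12 lower and leaving out both libraries that stood apart gave 120 higher and 16 lower; the cause was not tested. With the replicate number as a block, 95 genes were called higher and 24 lower, against 75 and 10 in the same 8 libraries without the block, and the members' median was -0.12 against -0.14. Libraries of the same number deviated with correlations of 0.07, -0.01, -0.12 and 0.14, so the numbers were not taken as pairs. Counts of 509157 in the smallest library limit the rare members, of which 3 could not be tested.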
